A study of Mus musculus with 6 samples.

Results

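Translation initiation, elongation and release factors were followed through 6 midbrain libraries of the mouse line Lhx5-TRAP DT154. The members were all entries of the count tables whose symbol begins with Eif1 to Eif6 or Eef1, is Eef2 or Etf1, or begins with Gspt, with the eIF2α kinases Eif2ak1 to Eif2ak4 left out. This rule uses no measured value and gave 61 of 32531 gene entries. Of these, 59 had enough reads to be tested. Eif4e1b, a paralog of the cap-binding protein eIF4E, had 0 counts in every library, and Eif4ebp3, an eIF4E-binding protein, had 0 counts in each IP library, against 0, 8 and 3 counts in input libraries.

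The mice were adult, untreated control animals that carried EGFP fused to the large-subunit ribosomal protein Rpl10a, in a line named for Lhx5, a LIM homeobox gene; the labels call the profiled cells neurons and do not say which. In translating ribosome affinity purification (TRAP), tagged polysomes are pulled down with anti-EGFP antibodies, so that the RNA bound to ribosomes of the tagged cells is enriched. The groups were 3 IP libraries from the pull-down and 3 input libraries, all from that line and tissue. A second label calls the input libraries unbound, that is, what the beads left behind, and which of the names holds cannot be settled from the labels. The labels do not say whether replicates came from separate animals, so p-values measure the spread between these libraries, which may be technical.

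A ribosome starts on an mRNA when eIF4E binds the cap, eIF4G bridges to eIF3 on the small subunit and the helicase eIF4A opens the leader. eIF2 brings the initiator tRNA, eIF1 and eIF1A hold the complex open while it scans for a start codon, eIF5 triggers GTP hydrolysis by eIF2, and eIF5B joins the large subunit. eIF2B reloads eIF2 with GTP, and it is the step that phosphorylation of eIF2 blocks under stress. eEF1A then delivers aminoacyl-tRNAs, eEF2 moves the ribosome on, eIF5A helps at difficult peptide bonds, and eRF1 with eRF3 ends the chain. In brain, adult neurons are known for eEF1A2 in place of eEF1A1, and mutations of eIF2B subunits in humans cause a disease of white matter.

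Start-site windows of the paralogs whose levels and ratios are set against each other below are shown first. eEF1A2 and eEF1A1 are near-identical proteins encoded by separate genes, and Eif2s3y and Eif2s3x are the Y-linked and X-linked genes of the γ subunit of eIF2. The sequences are from RefSeq (GRCm38.p6), 5′ to 3′ on the strand of the gene, from 120 bases before to 30 bases after the annotated start. Capitals mark the GC box GGGCGG on either strand and the letters TATATAA.
Eef1a2, chr2:181156986-181157135, minus strand: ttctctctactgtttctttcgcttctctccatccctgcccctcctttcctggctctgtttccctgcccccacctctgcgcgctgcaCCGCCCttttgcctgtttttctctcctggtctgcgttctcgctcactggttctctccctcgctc
Eef1a1, chr9:78481695-78481844, minus strand: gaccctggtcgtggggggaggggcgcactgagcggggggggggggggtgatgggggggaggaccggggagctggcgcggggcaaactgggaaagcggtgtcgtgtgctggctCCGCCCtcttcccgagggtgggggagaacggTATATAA
Eif2s3y, chrY:1010475-1010624, plus strand: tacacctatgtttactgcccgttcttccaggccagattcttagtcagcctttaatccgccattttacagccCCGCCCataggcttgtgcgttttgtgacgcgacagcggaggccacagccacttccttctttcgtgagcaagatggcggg
Eif2s3x, chrX:94212622-94212771, minus strand: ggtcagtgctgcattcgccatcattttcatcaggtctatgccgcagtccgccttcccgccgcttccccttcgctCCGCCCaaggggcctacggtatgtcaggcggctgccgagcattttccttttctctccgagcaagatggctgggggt
Each of the 4 windows holds 1 GC box. The letters TATATAA occur in the Eef1a1 window alone of these, as its last bases, within the 30 bases after the annotated start. That contrast depends on the window length, since the longer windows searched below held TATATAA and TATAAA for Eif2s3y too. The GC content of the 4 windows was 58% for Eef1a2, 71.3% for Eef1a1, 54% for Eif2s3y and 60.7% for Eif2s3x.

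A shared motif was also looked for across the factors. RefSeq promoter windows, 250 bases before to 50 after a start, were matched for 45 of the 61 members, with 57 windows. The ETS-type motif CCGGAAGT, on either strand, occurred in 17.5% of the members' windows, against 3.89% of all 32851 windows and 5.15% of protein-coding ones. The GC box GGGCGG occurred in 73.7% of the members' windows, against 35.7% of all and 46.2% of protein-coding ones, and the E-box CACGTG in 22.8%, against 7.15% and 7.84%. The letters TATAAA were in 8.77% of the members' windows, against 13.6% of all and 12.6% of protein-coding ones, and TATATAA in 5.26%, against 3.24% and 3.13%. None of these motifs contains another, and they were chosen after the windows had been read. Below are 28-base stretches for the members with CCGGAAGT (in capitals) whose RNA passed the test as higher in IP, read on the strand that holds the motif, with 1 of the 2 sites of Eif5a2.
Eif2b2, chr12:85219487-85219514, plus strand: ctctctcggcCCGGAAGTgaaacagtgc
Eif2b4, chr5:31193121-31193148, minus strand: ccagtgcacgCCGGAAGTtgtagtccgc
Eif4e2, chr1:87213906-87213933, plus strand: cgccagccaaCCGGAAGTagccgggccc
Eef1b2, chr1:63176822-63176849, plus strand: tgcagttccgCCGGAAGTagccgaggcc
Eif5a, chr11:69920668-69920695, minus strand: agccgtagcaCCGGAAGTgttccccatt
Eif5a2, chr3:28781231-28781258, plus strand: ggggcctatcCCGGAAGTgtggtcgcgg
Eif3d and Eif3l also held the motif, and neither passed the test. A match is a description of these letters and not of a bound site.

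The libraries held 38058239 to 45841499 counts on genes, and 3 counts corresponded to 0.0688 to 0.0741 CPM, the count scaled to the library's total. Totals were TMM-scaled, and the limit covers counting error only. The members took 0.799%, 0.803% and 0.848% of gene counts in IP libraries, against 0.723%, 0.736% and 0.751% in input libraries. Lhx5 was at 46.8, 56.0 and 49.2 CPM in IP libraries, against 3.92, 3.81 and 2.2 CPM in input libraries. The summed level of 5 neuronal markers was 17380 to 22080 CPM in IP libraries, against 7918 to 11320 CPM in input libraries, with 4 of the 5 higher in IP. Snap25 made up most of that sum, with means of 17920 CPM in IP and 8385 CPM in input. Syt1 did not pass, with means of 737.9 CPM in IP and 829.2 CPM in input (log2 fold change -0.168). The 5 oligodendrocyte markers summed to 247.5 to 370.2 CPM in IP libraries, against 3410 to 4028 CPM in input libraries, and the 5 astrocyte markers to 107.7 to 161.1 CPM, against 975.2 to 1307 CPM. All 5 of each list were lower in IP, as were 5 of 5 microglial markers, at 2.8 to 5.11 CPM in IP libraries against 38.4 to 60.5 CPM in input libraries. IP replicate 2 stood apart in the summed level of 4 Purkinje cell markers, at 1191 CPM against 235.1 and 176.6 CPM in the other IP libraries and 264.4 to 417.4 CPM in input libraries. Pcp2, Car8 and Calb1 were each highest in that library, while Itpr1, at 239 CPM there, was at 272 CPM in input replicate 3. Input replicate 3 stood apart in 3 striatal markers, at 416.9 CPM against 71.8 and 25.1 CPM in the other input libraries, and in the choroid plexus gene Ttr, at 1266 CPM. The levels of these cell type markers thus differ along with every comparison below, and their part in the factors' differences was not tested. In such bulk RNA, fewer cells of a type and less RNA per cell cannot be told apart.

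Translation factors were, in number, more often higher than lower in IP. With the quasi-likelihood test of edgeR, adjusted over 17197 genes by the Benjamini-Hochberg method (threshold 0.05), 25 of 59 were higher, 4 were lower and 30 did not pass. Across all tested genes 26% were higher and 27.9% lower, and across protein-coding genes 29% were higher and 25.3% lower. Counts by complex below stand beside these shares. The members' log2 fold changes (IP over input) had a median of 0.177 and ran from -1.89 to 1.27, with 44 of 59 above 0, beside medians of -0.013 over all tested genes and 0.061 over protein-coding genes. The scaling matters here. Upper-quartile scaling moved the median of all genes to -0.166 and that of the members to 0.02, with 19 members higher and 7 lower. Without input replicate 2, 20 members were higher and 2 lower.

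**Figure D1:**
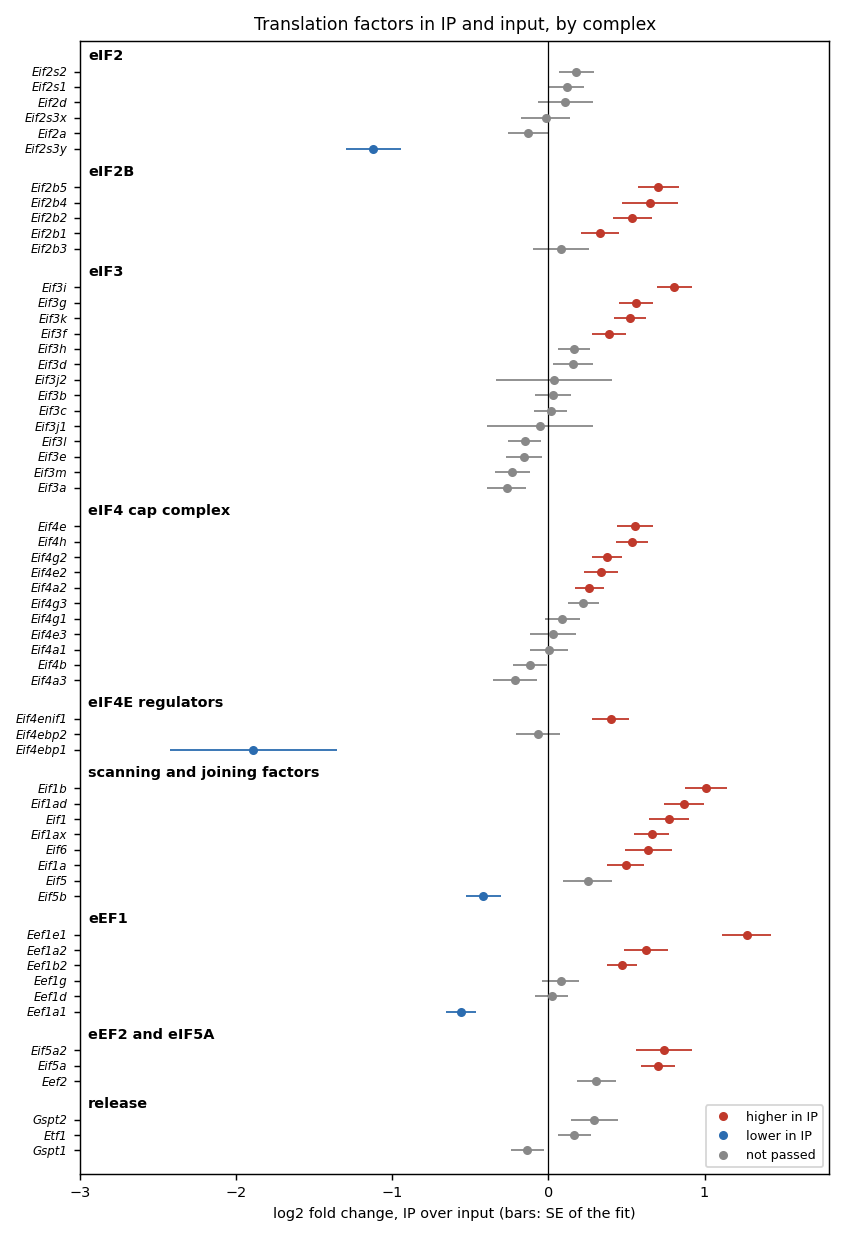
Log2 fold change (IP over input) of the 59 tested factors, grouped by complex; points are fitted values from 3 IP and 3 input libraries, bars are the SE of the fit and colours give the call at an adjusted p of 0.05. The scanning and joining factors and eIF2B lie mostly right of 0, eIF3 and eIF2 straddle it, and Eif4ebp1, Eif2s3y, Eef1a1 and Eif5b are the 4 members lower in IP.

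Among cap-binding and helicase factors, 5 of 11 tested members were higher in IP and 6 did not pass, beside 29% higher and 25.3% lower among protein-coding genes. Their median log2 fold change was 0.22, with a range of -0.21 to 0.55. Eif4g2, the eIF4G-like protein DAP5 that lacks the eIF4E-binding site, had the most reads of any member, not corrected for length, at 1660, 1610 and 1850 CPM in IP libraries, against 1310, 1290 and 1350 CPM in input libraries. All IP values lay above all input values, with a log2 fold change of 0.38 (SE 0.097, edgeR adjusted p 0.011). The scaffold Eif4g1 had 94.0, 100 and 114 CPM in IP libraries, against 90.1, 99.3 and 101 CPM in input libraries, with overlapping groups. Eif4g3, its close paralog, had 239, 245 and 268 CPM in IP libraries, against 216, 214 and 214 CPM in input libraries. These did not overlap, but its log2 fold change of 0.22 (SE 0.097) did not pass (edgeR adjusted p 0.082).

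Eif4e, the cap-binding protein itself, reached 95.3, 106 and 106 CPM in IP libraries, against 63.0, 71.4 and 75.5 CPM in input libraries. Its log2 fold change of 0.55 (SE 0.113, edgeR adjusted p 0.0036) was, of the cap complex, the one with the highest value. Eif4e2, a cap-binding homologue known as a repressor, had 102, 88.8 and 105 CPM in IP libraries, against 79.2, 75.4 and 79.7 CPM in input libraries (log2 fold change 0.34, SE 0.108, edgeR adjusted p 0.027). Eif4e3 overlapped between the groups, at 33.5, 26.6 and 30.8 CPM in IP libraries, against 25.4, 31.2 and 32.4 CPM in input libraries. Eif4h, which stimulates the helicase, was higher by a log2 fold change of 0.53 (SE 0.101, edgeR adjusted p 0.0025), whereas Eif4b, with the same role, had 235, 189 and 207 CPM in IP libraries, against 231, 228 and 225 CPM in input libraries.

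Eif4a2 and Eif4a1 encode the helicase. Eif4a2 had 747, 702 and 753 CPM in IP libraries, against 621, 609 and 605 CPM in input libraries, with no overlap and a log2 fold change of 0.26 (SE 0.091, edgeR adjusted p 0.038). Eif4a1 had 44.2, 41.1 and 36.6 CPM in IP libraries, against 38.6, 39.2 and 43.5 CPM in input libraries, which overlap. For Eif4a1, 65.3% of the 50-base stretches (50-mers) of its longest coding transcript also occur in other genes, and for Eif4a2 12.7%. Reads that fit several genes equally are not unique. Per kilobase of unshared transcript, Eif4a2 stood at 310.4 CPM in IP and 258.7 CPM in input, and Eif4a1 at 65.9 CPM in IP and 65.7 CPM in input. This scale assumes that no read from shared stretches was counted, which was not checked. The call of Eif4a2 is a marginal one: leaving out any 1 of the 6 libraries ended it, with log2 fold changes of 0.23 to 0.28. Eif4e2 did not pass without IP replicate 1 (0.33), input replicate 1 (0.35) or input replicate 2 (0.32), so that 3 cap-complex members were higher without any 1 of those. With upper-quartile scaling or library totals alone, 2 were higher, Eif4e and Eif4h.

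Of the proteins that hold eIF4E, Eif4ebp2, the main 4E-BP of brain, did not differ beyond its spread, at 38.6, 51.9 and 51.3 CPM in IP libraries, against 47.3, 48.3 and 52.8 CPM in input libraries. Eif4ebp1 was near the limit of detection, with 14, 15 and 6 counts in IP libraries, against 47, 53 and 32 counts in input libraries. Those counts are 0.335, 0.366 and 0.14 CPM in IP libraries, against 1.13, 1.22 and 0.79 CPM in input libraries, and all IP values were lower. Its log2 fold change of -1.89 (SE 0.535, edgeR adjusted p 0.016) was the largest fall among members, but it did not pass without input replicate 1 (-1.83) or input replicate 2 (-1.76). Eif4ebp1 met the low-count filter only through the input libraries, where it is high. With a count of 10 required in every library it was not tested, so its call and rank are a description only. Eif4enif1, the transporter that carries eIF4E into the nucleus and to P-bodies, had 72.6, 84.6 and 87.4 CPM in IP libraries, against 57.9, 60.4 and 67.3 CPM in input libraries (log2 fold change 0.40, SE 0.119, edgeR adjusted p 0.021). It did not pass without IP replicate 2 (0.34), input replicate 1 (0.36) or input replicate 2 (0.39).

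The factors of scanning and subunit joining were mostly higher in IP, 6 of 8, with 1 lower and a median log2 fold change of 0.65. Among protein-coding genes 29% were higher and 25.3% lower. Eif1b, a paralog of the start-codon gatekeeper eIF1, had 227, 194 and 267 CPM in IP libraries, against 120, 113 and 109 CPM in input libraries. The groups were far apart, with a log2 fold change of 1.01 (SE 0.133, edgeR adjusted p 0.00045). Eif1 itself had 144, 165 and 174 CPM in IP libraries, against 86.3, 89.1 and 107 CPM in input libraries (log2 fold change 0.77, SE 0.127, edgeR adjusted p 0.0013), and 31.6% of its transcript 50-mers are shared with 18 other genes. Both eIF1A genes were higher. Eif1ax had 92.3, 90.9 and 94.7 CPM in IP libraries, against 65.8, 54.5 and 55.5 CPM in input libraries (log2 fold change 0.66, SE 0.113). Eif1a had 168, 146 and 163 CPM in IP libraries, against 107, 105 and 126 CPM in input libraries (log2 fold change 0.49, SE 0.116). Both groups of libraries were separate for each gene, with edgeR adjusted p of 0.0015 for Eif1ax and 0.0071 for Eif1a.

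Eif1ad, a protein with an eIF1A-like domain, had 46.7, 42.1 and 46.8 CPM in IP libraries, against 26.8, 25.9 and 21.6 CPM in input libraries (log2 fold change 0.87, SE 0.128, edgeR adjusted p 0.00077). Its exons overlap those of Banf1 on the other strand, and whether counting used strand is not given in the sources used here. It is therefore not known if reads over the shared bases were counted or set aside as ambiguous. The same limit holds for other called members that share exon bases with an antisense gene: Eif1b (D830035M03Rik), Eif5b (Rev1), Eif6 (Gm16098), Eif2b4 (Snx17), Eif4a2 (Rfc4) and Eef1b2 (Ndufs1). Ambiguous reads took on average 1.63% of each IP file's total, against 9.35% of each input file's. Their part in these calls was not tested. Eif6, which keeps free large subunits from joining, was also higher (log2 fold change 0.64, SE 0.151, edgeR adjusted p 0.0072). Eif5, the GTPase activator, varied widely, at 482, 339 and 381 CPM in IP libraries, against 385, 324 and 300 CPM in input libraries, and did not pass. Eif5b, the GTPase that joins the subunits, went the other way, at 106, 125 and 103 CPM in IP libraries, against 149, 152 and 144 CPM in input libraries. All IP values were lower, by a log2 fold change of -0.42 (SE 0.111, edgeR adjusted p 0.013), though it did not pass without IP replicate 1 (-0.37) or input replicate 2 (-0.39).

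In the eIF2 group, which brings the initiator tRNA, 1 of 6 members differed, beside 29% of protein-coding genes higher and 25.3% lower. That member was Eif2s3y. It had 17, 12.6 and 11.8 CPM in IP libraries, against 30.9, 26.0 and 33.3 CPM in input libraries, with a log2 fold change of -1.12 (SE 0.177, edgeR adjusted p 0.0011). Its X-linked partner Eif2s3x had 8.48, 8.91 and 8.65 CPM in IP libraries, against 8.25, 9.19 and 8.94 CPM in input libraries, a log2 fold change of -0.02 (SE 0.156). Of the transcript 50-mers, 36.2% of those of Eif2s3x and 0% of those of Eif2s3y recur in other genes. The α subunit Eif2s1 had overlapping groups (log2 fold change 0.12, SE 0.112). The β subunit Eif2s2 had separate ones, at 51.1 to 54.8 CPM in IP libraries against 42.7 to 50.3 CPM in input libraries, and did not pass (0.18, SE 0.112). Eif2a and Eif2d, which can place initiator tRNA without eIF2, were at -0.13 (SE 0.131) and 0.11 (SE 0.176).

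Other Y-linked genes were looked at after Eif2s3y had been seen. The histone demethylase genes Kdm5d and Uty were lower in IP, by log2 fold changes of -1.08 (SE 0.18) for Kdm5d and -1.1 (SE 0.152) for Uty, with edgeR adjusted p of 0.0014 for Kdm5d and 0.00056 for Uty. Ddx3y, an RNA helicase, had a log2 fold change of -0.24 (SE 0.106) and did not pass (edgeR adjusted p 0.087). Xist, transcribed from the inactive X of females, had at most 2 counts in any library.

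The eIF2B complex, which reloads eIF2, had 4 of 5 subunits higher in IP, beside 29% of protein-coding genes, and a median log2 fold change of 0.54. Its catalytic ε subunit Eif2b5 had 44.7, 41.1 and 54.1 CPM in IP libraries, against 28.2, 27.5 and 30.1 CPM in input libraries (log2 fold change 0.70, SE 0.134, edgeR adjusted p 0.0026). Eif2b4 had 13.5, 18.8 and 20.6 CPM in IP libraries, against 11.2, 11.3 and 11.2 CPM in input libraries, and Eif2b2 37.8, 35.7 and 36.8 CPM, against 28.8, 23.7 and 23.6 CPM. Eif2b1 had 31.5, 27.7 and 28.9 CPM in IP libraries, against 21.8, 24.7 and 23.7 CPM in input libraries. Each of these had separate groups, and their log2 fold changes were 0.65 (SE 0.179) for Eif2b4, 0.54 (SE 0.126) for Eif2b2 and 0.33 (SE 0.122) for Eif2b1. Eif2b3 overlapped, with a log2 fold change of 0.08 (SE 0.18).

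The calls within eIF2B are uneven in strength. Eif2b1, at an edgeR adjusted p of 0.048, did not pass with the replicate number as a block (edgeR adjusted p 0.055) or without any 1 of the 6 libraries (0.28 to 0.38). Nor did it pass with any other scaling or filter, with DESeq2 or with protein-coding genes only, whereas limma-voom kept the call. Eif2b4 did not pass without IP replicate 2, at a log2 fold change of 0.57 (edgeR adjusted p 0.052), so that 2 subunits, Eif2b5 and Eif2b2, were then higher. With IP replicate 2 and input replicate 3 both left out, Eif2b5 alone passed.

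eIF3 is the scaffold with the most subunits. Of 14 members 4 were higher and 10 did not pass, with a median log2 fold change of 0.03 and a range of -0.27 to 0.81. The share higher is near that of protein-coding genes, of which 29% were higher and 25.3% lower. Eif3i had 201, 199 and 229 CPM in IP libraries, against 122, 110 and 127 CPM in input libraries (log2 fold change 0.81, SE 0.111, edgeR adjusted p 0.00055). Eif3g and Eif3k had separate groups too, at log2 fold changes of 0.56 (SE 0.107) for Eif3g and 0.53 (SE 0.102) for Eif3k, as did Eif3f at 0.39 (SE 0.108). Eif3a, the largest subunit, had 143, 152 and 162 CPM in IP libraries, against 157, 193 and 201 CPM in input libraries, a log2 fold change of -0.27 (SE 0.124) that did not pass (edgeR adjusted p 0.098). By edgeR at an unadjusted p under 0.05, by DESeq2 and by limma-voom, 0 of the 14 were lower. The direction of the group's median depends on the scaling: with upper-quartile scaling it was -0.12, and Eif3a (-0.42), Eif3m (-0.38) and Eif3l (-0.31) were lower and Eif3f (0.24) did not pass. Without input replicate 1 Eif3a passed as lower (-0.37), and without input replicate 2 Eif3f did not pass (0.36). Eif3j1 and Eif3j2, which share 54.8% and 91.8% of their transcript 50-mers with other genes, had 102 to 209 counts and 44 to 65 counts in IP libraries, against 125 to 188 and 43 to 63 counts in input libraries, with overlapping groups.

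Among elongation factors, the eEF1A paralogs were called in opposite directions. Eef1a2 had 180, 138 and 160 CPM in IP libraries, against 113, 109 and 88.3 CPM in input libraries, a log2 fold change of 0.63 (SE 0.141, edgeR adjusted p 0.0058). Eef1a1 had 263, 265 and 270 CPM in IP libraries, against 379, 377 and 422 CPM in input libraries, a log2 fold change of -0.56 (SE 0.098, edgeR adjusted p 0.0017). Every IP value was above every input value for Eef1a2 and below for Eef1a1. Levels per kilobase need care: 60.6% of the transcript 50-mers of Eef1a1 recur in 21 other genes, against 0% for Eef1a2. Per kilobase of unshared transcript, Eef1a1 stood at 376.2 CPM in IP and 554.9 CPM in input, and Eef1a2 at 76.5 CPM in IP and 49.6 CPM in input (means of 3 libraries).

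The exchange factor that recharges eEF1A had 1 of 3 subunits called. Its β subunit Eef1b2 had 211, 201 and 225 CPM in IP libraries, against 157, 153 and 150 CPM in input libraries (log2 fold change 0.47, SE 0.098, edgeR adjusted p 0.0039). Eef1d (log2 fold change 0.02, SE 0.104) and Eef1g (0.08, SE 0.118) had overlapping groups, and 64.3% of the transcript 50-mers of Eef1g are shared. Eef1e1, which despite its name belongs to the multi-tRNA synthetase complex, had 52.0, 54.5 and 61.3 CPM in IP libraries, against 19.8, 21.4 and 28.4 CPM in input libraries. Its log2 fold change of 1.27 (SE 0.159, edgeR adjusted p 0.00036) was the largest rise among the members.

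Of the later elongation factors, both eIF5A genes were higher. Eif5a had 172, 159 and 196 CPM in IP libraries, against 111, 106 and 107 CPM in input libraries (log2 fold change 0.70, SE 0.111, edgeR adjusted p 0.0011). Eif5a2 had 311, 234 and 323 CPM in IP libraries, against 208, 174 and 138 CPM in input libraries (log2 fold change 0.74, SE 0.179, edgeR adjusted p 0.0081). Dhps and Dohh, the enzymes that make the hypusine residue on eIF5A, were higher as well, Dhps by a log2 fold change of 1.17 (SE 0.169) and Dohh by 1.14 (SE 0.15); they were named after their values were seen. Eef2, the translocase, had 561, 488 and 648 CPM in IP libraries, against 480, 466 and 425 CPM in input libraries. Its groups did not overlap, but its log2 fold change of 0.31 (SE 0.126) did not pass (edgeR adjusted p 0.067), and without IP replicate 2 it did (0.37, edgeR adjusted p 0.033).

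The release factors did not pass. Etf1 (eRF1) had a log2 fold change of 0.17 (SE 0.107). Gspt1, the widely used eRF3, had 97.5, 93.3 and 88.4 CPM in IP libraries, against 96.0, 99.9 and 110 CPM in input libraries (log2 fold change -0.13, SE 0.105). Gspt2, its retrogene paralog, had 20.9, 17.7 and 20.4 CPM in IP libraries, against 14.7, 15.2 and 18.3 CPM in input libraries (0.29, SE 0.148). By edgeR at an unadjusted p under 0.05, by DESeq2 and by limma-voom, 0 of the 3 were called.

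**Figure D2:**
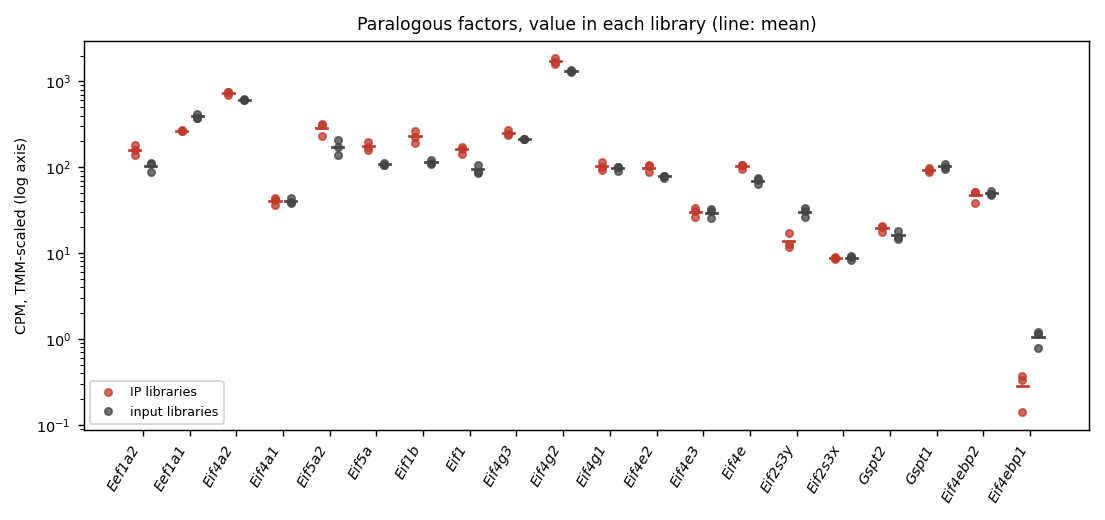
Level of paralogous factors in each library, in TMM-scaled CPM on a log axis; points are the 3 IP (left) and 3 input (right) libraries of each gene and lines are their means. Eef1a2 is higher and Eef1a1 lower in IP, Eif4g2 has the highest CPM, not corrected for length, with 1610 to 1850 in IP, and Eif4ebp1 lies at 0.14 to 1.22 CPM.

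Ratios of paralogs inside a library need no scaling between libraries. For 7 of 13 pairs the IP and input ratios did not overlap, 5 of them above and 2 below input. How often the ratios of other pairs of genes separate was not measured, so this count is not shown to be particular to paralogs. Of all tested genes, 26% were higher and 27.9% lower in IP. With 3 libraries against 3, the exact two-sided permutation test cannot give a p under 0.1, which is the value of each of the 7, and it was 0.19 after adjustment over the 13 pairs. The log2 ratio of Eef1a2 to Eef1a1 was -0.54, -0.94 and -0.76 in IP libraries, against -1.75, -1.79 and -2.26 in input libraries, so Eef1a2 stood 1.18 higher relative to Eef1a1 in IP. In counts, that is 0.596 Eef1a2 reads per Eef1a1 read in IP, against 0.262 in input. The log2 ratio of Eif2s3y to Eif2s3x averaged 0.65 ± 0.304 in IP libraries, against 1.77 ± 0.231 in input libraries (SD over 3 each), a difference of -1.12.

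The log2 ratio of Eif4g2 to Eif4g1 averaged 4.05 ± 0.0792 in IP and 3.77 ± 0.0824 in input, that of Eif4a2 to Eif4a1 4.18 ± 0.161 and 3.92 ± 0.11, and that of Gspt2 to Gspt1 -2.24 ± 0.143 and -2.67 ± 0.0672 (IP first, then input; SD over 3 libraries). Eif4e3 to Eif4e averaged -1.76 ± 0.245 in IP and -1.24 ± 0.059 in input, and Eif4ebp2 to Eif4ebp1, which rests on as few as 6 counts, 7.43 ± 0.852 in IP and 5.57 ± 0.409 in input. That difference, 1.86, was the largest of the 13 pairs, and the filter limit given above for Eif4ebp1 applies to it. The ratios of Eif5a2 to Eif5a, Eif1b to Eif1, Eif1ax to Eif1a, Eif4g3 to Eif4g1, Eif4e2 to Eif4e and Eif3j2 to Eif3j1 overlapped between the groups, with differences of -0.22 to 0.22.

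**Figure D3:**
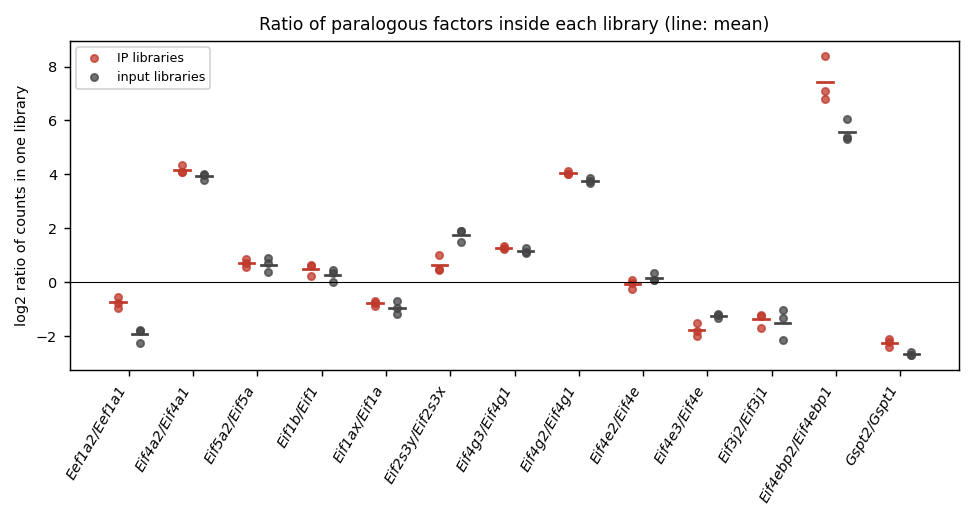
Log2 ratio of the counts of paralogs inside each library; points are the 3 IP (left) and 3 input (right) libraries and lines are means. The Eef1a2/Eef1a1 ratios lie between -0.94 and -0.54 in IP and between -2.26 and -1.75 in input, while the Eif5a2/Eif5a ratios overlap.

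Levels were compared between genes per kilobase of the longest coding transcript. Mean levels in IP led with Eif4a2 at 271 CPM per kilobase, Eif1b at 221.6, Eif4g2 at 213.4, Eif3i at 186.6 and Eef2 at 183.1; the same genes had 225.9, 110.1, 164.4, 106.8 and 147.9 CPM per kilobase in input. Eef1a1 ranked 7 in IP and 2 in input on this scale, with 148.3 CPM per kilobase in IP and 218.8 in input. Such ranks ignore shared sequence. Per kilobase of unshared transcript Eef1a1 led in both groups, with 376.2 CPM in IP and 554.9 CPM in input, before Eif4a2 with 310.4 CPM in IP and 258.7 CPM in input. That order rests on the unchecked assumption that no read from shared stretches was counted. Of 42 tested members with under 10% of transcript 50-mers shared, 22 were higher and 2 lower (median log2 fold change 0.33). Of 17 with 10% or more shared, 3 were higher and 2 lower (median 0.03). Sharing was counted on either strand and includes genes that overlap at the same place, so this split is not one by multiple alignment alone. Of 37 with no other gene over their exons, 17 were higher and 2 lower (median 0.29). Beside these counts, 29% of protein-coding genes were higher and 25.3% lower. Shares among other genes split by shared sequence or overlap were not taken. Alignments that were not unique took 44.2% ± 0.402 of each IP file's total, against 32.5% ± 0.596 of each input file's (SD, n = 3 libraries per group), and reads called ambiguous took 1.63% ± 0.046, against 9.35% ± 1.48. Their part in these calls was not tested.

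Fold changes also ran with exon length. Over 59 members, Spearman's rho between summed exon length and log2 fold change was -0.258, and with the length of the longest coding transcript -0.15. For summed exon length over 14209 protein-coding genes it was -0.236; genes are not independent replicates. In the shortest of 4 equal length classes of protein-coding genes, up to 2860 bp, 41.5% were higher in IP with a median of 0.43, and 13 of the 21 members in that range were higher and 2 lower, with a median of 0.53. In the second class, 4 of 14 members were higher, against 32.2% of protein-coding genes (median 0.10, against 0.17). In the third, 6 of 17 members were higher, against 25.2% of protein-coding genes (median 0.16, against -0.004). The share lower was not taken by class, and over all lengths it was 25.3% of protein-coding genes. In the longest class, over 6868 bp, 17.1% of protein-coding genes were higher with a median of -0.22, and 2 of 7 members were higher and 1 lower, with a median of 0.11. Beyond the shortest class the members' medians, over 14, 17 and 7 genes, showed no steady fall, while those of protein-coding genes fell. That contrast was not tested, and rho over all 59 members was close to that of protein-coding genes. The part that length has in the calls was not tested.

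**Figure D4:**
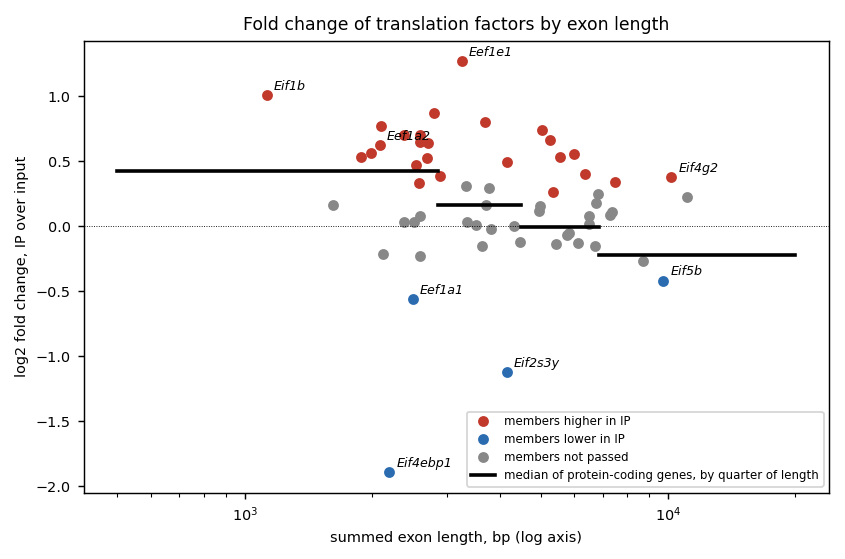
Log2 fold change (IP over input) of the 59 tested factors against summed exon length in bp (log axis), coloured by call; black lines are the medians of protein-coding genes in 4 equal length classes. Eef1e1 and Eif1b lie above their class's median, and Eef1a1 and Eif4ebp1, though short, lie below it.

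Messages with a 5′ terminal oligopyrimidine tract (TOP) carry many translation factors and answer to mTORC1. Of 10 classical TOP members, 2 were higher (Eef1b2 and Eif3f), 1 was lower (Eef1a1) and 7 did not pass, with a median log2 fold change of 0.05. Of the other 49 tested members 23 were higher and 3 lower, with a median of 0.25. Beside both lists, 29% of protein-coding genes were higher and 25.3% lower. The difference between these lists was not tested.

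Other genes of the pathway, 46 listed and 45 with an entry (Dph1 had none), gave 18 higher, 7 lower and 20 not passed, with a median log2 fold change of 0.23. Beside this, 26% of all tested genes were higher and 27.9% lower, and of protein-coding genes 29% and 25.3%. With upper-quartile scaling, 13 of the 45 pathway genes were higher and 8 lower. The mTORC1 activator Rheb had 355, 356 and 408 CPM in IP libraries, against 162, 173 and 180 CPM in input libraries (log2 fold change 1.12, SE 0.108). Paip2, which pulls poly(A)-binding protein off the tail, had 480, 411 and 499 CPM in IP libraries, against 259, 232 and 252 CPM in input libraries (0.91, SE 0.113). Pabpc1, the poly(A)-binding protein itself, had 73.3, 74.3 and 73.9 CPM in IP libraries, against 151, 144 and 152 CPM in input libraries, and all IP values were lower (log2 fold change -1.01, SE 0.094).

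Among repressors tied to the fragile X protein FMRP, the CYFIP genes were called in opposite directions. Cyfip2 had 1150, 1170 and 1300 CPM in IP libraries, against 810, 892 and 846 CPM in input libraries (log2 fold change 0.51, SE 0.1). Cyfip1 had 13.3, 14.5 and 15.7 CPM in IP libraries, against 42.6, 43.3 and 42.5 CPM in input libraries (-1.56, SE 0.121), and Fmr1, their partner, had 30.6, 26.0 and 28.3 CPM, against 49.0, 49.0 and 47.8 CPM (-0.78, SE 0.114). The edgeR adjusted p of these 6 genes lay between 4.11e-05 (Cyfip1) and 0.003 (Cyfip2). Of the eIF2α kinases, Eif2ak1 was higher (0.84, SE 0.142) and Eif2ak2 (-0.77, SE 0.178) and Eif2ak4 (-0.37, SE 0.127) lower, while Eif2ak3 (0.45, SE 0.234) did not pass. Eef2k, the kinase of eEF2, was lower (-0.62, SE 0.193), and the ribosome rescue genes Pelo, Hbs1l, Gtpbp1 and Gtpbp2 were all higher, with log2 fold changes of 0.44 to 0.80. Of these, Gtpbp2 had overlapping groups, at 32, 22.4 and 34.9 CPM in IP libraries, against 23.2, 20 and 19.8 CPM in input libraries (edgeR adjusted p 0.042).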

How the data were processed

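The values are raw counts of reads per gene symbol that the authors deposited, 1 table for each library. Per the submitters' processing notes the tools were STAR 2.0.0e and HTSeq and the build mm10; neither annotation nor strand setting was given in the sources used here. Summary lines and the entry for unknown genes (at most 1 count) were left out of totals and tests. Groups and replicate numbers came from the sample titles.

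Low-count genes were removed with filterByExpr (minimum count 10, minimum total 15), leaving 17197 of 32531. Counts were TMM-scaled and tested in edgeR 4.0.16 (R 4.3.3; robust quasi-likelihood fit, two-sided, group as the only term), with Benjamini-Hochberg adjustment and a threshold of 0.05. The SE is the log2 fold change divided by the square root of F. The code was tested on simulated data. Paralog ratios used counts plus 0.5 and exact permutation over libraries. Lengths and shared 50-mers came from GENCODE M21, and promoters from RefSeq. The 50-mers were those of the longest coding transcript of each member. Replicates of a group differed by more than sampling noise (chi-square per degree of freedom 27.4 to 78.8).

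The members, lists and tests were chosen with earlier results of these data known, and nothing that was known then is offered as independent support. Named genes were both members of each paralog pair, the most abundant called member per complex and direction, the 5 largest rises and falls with an average log2 CPM no lower than 3, and of the other pathway genes the 3 most abundant called per direction; further ones are members given for completeness of their complex or were named once their values were known. The pairing comes from the labels, where an IP and an input library of 1 number share a sequencing lane. As a check, the correlation of deviations within a number was 0.249, 0.096 and 0.113. Alternatives were other scalings, filters and tools (DESeq2 1.42.0, limma 3.58.1), a replicate block, libraries left out, a threshold of 0.01 and protein-coding genes only.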

Additional observations from a re-analysis of the deposited data

How the results depend on the processing

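Of the 25 members higher in IP, 17 kept their call under every alternative run, as did Eef1a1 and Eif2s3y of the 4 lower ones. The exceptions were Eif2b1, Eif2b2, Eif2b4, Eif3f, Eif4a2, Eif4e2, Eif4enif1 and Eif4g2 among the higher and Eif4ebp1 and Eif5b among the lower, and Eef2, Eif3a, Eif3l and Eif3m gained one. The count of higher members ran from 18 to 25. The count of lower members was 7 with upper-quartile scaling and 2 at a threshold of 0.01, and 2 to 4 with 1 library left out; that of lower pathway genes was 4 at 0.01. Medians of log2 fold changes under upper-quartile scaling were -0.108 for eIF2, 0.384 for eIF2B, -0.119 for eIF3, 0.071 for the cap complex, 0.498 for scanning factors and 0.014 for release factors; with library totals alone these were -0.096, 0.40, -0.103, 0.086, 0.511 and 0.029. A count of 10 in every library gave -0.078 for eIF3, 0.112 for the cap complex, 0.539 for scanning factors and 0.055 for release factors, and protein-coding genes only gave -0.069, 0.122, 0.547 and 0.066. The eIF3 median ran from 0.002 to 0.16 with 1 library left out. Without the low-count filter the median of the eIF4E regulators was -0.972, with Eif4ebp3 then tested. Without IP replicate 2 and input replicate 3 the Gspt2 to Gspt1 difference was 0.545. Why these values moved was not tested. With the replicate block 24 members were higher and 4 lower; only the call of Eif2b1 changed among members.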
